A study of Homo sapiens with 4 samples.

Results

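The long intergenic noncoding RNAs that carry a LINC number instead of a name of their own, and that had at least 100 reads summed over 4 RNA-seq libraries, are described here as the expressed LINC RNAs. They were selected on 2 things, the form of the symbol and the summed read count, and not on the difference between groups. They were 95 of the 557 rows with such a symbol in a table of 27452 genes, and 53 of the 557 had no read in any library. The libraries are labelled as HepG2, an established human hepatoma line. In 2 of them STAT3 was lowered with a short hairpin RNA (STAT3 shRNA), and the other 2 carried a control hairpin (Ctrl shRNA). The label of all 4 gives the same line and the same serum-containing medium, and no further allele or agent. Whether the 2 libraries of a group share a hairpin, a clone or a culture is not stated, so the p-values reflect variation among these libraries only, and that variation may be technical. The stated question is how lowering STAT3 affects other genes.

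Long intergenic noncoding RNAs are transcribed by RNA polymerase II from their own start sites, are mostly spliced and polyadenylated like messenger RNAs, and are usually made in few copies per cell. Some act at the chromatin near their own gene, others bind proteins or microRNAs, and a few carry short open reading frames that are translated. Many of them are degraded in the nucleus by the RNA exosome. STAT3 is a transcription factor that is phosphorylated downstream of cytokine and growth factor receptors and binds DNA as a dimer at sites of the form TTCNNNGAA. A LINC number says nothing of function, so the set is a naming class and not a pathway.

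STAT3 (ENSG00000168610.14), the gene the hairpin targets, had 34.7 and 36.1 CPM (reads scaled to library size with trimmed-mean factors) in the STAT3 shRNA libraries, against 245.03 and 244.3 CPM in the Ctrl shRNA libraries. The fall was 6.91-fold (log2 fold change -2.79 ± 0.09, SE; adjusted p 3.28e-07, edgeR quasi-likelihood test). Total counts were 17694642 to 25862027 per library, so that 3 reads came to 0.113 to 0.163 CPM. Over all genes, log2(CPM + 1) correlated at 0.9971 within STAT3 shRNA and 0.9954 within Ctrl shRNA, and at 0.9844 to 0.9878 between groups. The liver label was not borne out by most hepatocyte markers. Of 15 such markers, 10 were in the table and 4 had enough reads to be tested. APOA2 was at 0 reads in every library, and ALB, APOA1, ASGR1 and TAT had at most 3 reads in any of them. The 10 summed to 3117 to 3168 CPM with STAT3 shRNA and 3898 to 4556 CPM with Ctrl shRNA, nearly all of it CPS1. CPS1, a urea cycle enzyme, stood at 3134 CPM with STAT3 shRNA and 4222 CPM with Ctrl shRNA, and HNF4A, a hepatocyte transcription factor, at 6.07 and 1.53 CPM. KRT7, a keratin of bile duct and other simple epithelia, stood at 714 CPM with STAT3 shRNA and 1116 CPM with Ctrl shRNA. Of a list of 9 LINC genes known for expression in liver, 3 were in the table and 0 had 100 reads. Summed levels of other marker lists were 36.0 to 36.1 CPM with STAT3 shRNA and 53.0 to 60.8 CPM with Ctrl shRNA for fibroblasts, and 24.5 to 28.2 against 11.1 to 14.8 CPM for leukocytes, nearly all of it CD68. Their part in the results below was not tested.

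Start-site sequences are shown, as a description only, for 4 LINC RNAs and for 1 protein-coding gene that shares its start region with another member. They come from RefSeq (build GRCh38.p14), which gave a window of 300 bases, 250 before and 50 after the start, for 59 of the 95 members as used here. LINC01133 and LINC00668 rose strongly, though some alternatives ended the call of LINC00668. LINC00857 rose, in a call that several alternatives ended, and holds a STAT-type motif, and LINC00313 fell most. In ZC3H12A, which fell together with the divergent LINC01137, capitals mark the 142 bases from the GENCODE start of LINC01137 to that of ZC3H12A. In LINC00857 capitals mark the match to TTCNNNGAA. The other windows hold no match and are in lower case.
LINC01133, chr1:159960974-159961273, plus strand: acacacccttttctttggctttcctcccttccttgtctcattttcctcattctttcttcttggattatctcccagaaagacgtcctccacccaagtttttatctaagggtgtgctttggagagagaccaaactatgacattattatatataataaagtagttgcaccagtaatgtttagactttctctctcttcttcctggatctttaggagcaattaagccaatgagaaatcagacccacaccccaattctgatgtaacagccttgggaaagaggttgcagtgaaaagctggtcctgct
LINC00668, chr18:6929820-6930119, minus strand: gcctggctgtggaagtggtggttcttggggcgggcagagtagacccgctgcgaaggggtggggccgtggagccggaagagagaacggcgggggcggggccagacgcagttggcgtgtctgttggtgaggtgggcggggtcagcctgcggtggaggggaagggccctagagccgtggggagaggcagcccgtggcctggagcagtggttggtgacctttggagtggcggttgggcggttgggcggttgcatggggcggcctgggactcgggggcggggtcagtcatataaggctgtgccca
LINC00857, chr10:80207460-80207759, plus strand: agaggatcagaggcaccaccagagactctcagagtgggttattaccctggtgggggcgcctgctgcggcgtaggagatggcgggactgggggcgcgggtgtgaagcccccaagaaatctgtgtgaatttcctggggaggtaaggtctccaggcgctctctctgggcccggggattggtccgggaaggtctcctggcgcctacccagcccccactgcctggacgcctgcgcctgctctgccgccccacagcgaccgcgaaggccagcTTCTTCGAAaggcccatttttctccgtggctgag
LINC00313, chr21:43478174-43478473, minus strand: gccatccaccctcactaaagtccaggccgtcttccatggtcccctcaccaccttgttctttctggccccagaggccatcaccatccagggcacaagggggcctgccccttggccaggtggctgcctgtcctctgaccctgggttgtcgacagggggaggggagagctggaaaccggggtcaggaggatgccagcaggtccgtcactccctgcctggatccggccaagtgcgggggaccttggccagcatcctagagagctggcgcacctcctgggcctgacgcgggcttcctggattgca
ZC3H12A (start shared with LINC01137), chr1:37474330-37474629, plus strand: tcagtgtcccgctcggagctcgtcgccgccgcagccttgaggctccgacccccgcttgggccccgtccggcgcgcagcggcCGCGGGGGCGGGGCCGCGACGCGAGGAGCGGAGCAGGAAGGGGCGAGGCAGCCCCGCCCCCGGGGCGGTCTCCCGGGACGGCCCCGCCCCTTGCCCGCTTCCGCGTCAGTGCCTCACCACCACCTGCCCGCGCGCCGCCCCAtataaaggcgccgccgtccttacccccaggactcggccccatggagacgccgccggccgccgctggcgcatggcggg
The start in RefSeq lies 6 bases from the GENCODE 29 start in LINC01133, 97 bases in LINC00668 and 0 bases in LINC00857, but 1311 bases in LINC00313, whose window therefore lies inside the GENCODE gene span. The window of LINC01133 is AT-rich with a GC content of 41.3%, while those of LINC00668, LINC00857 and LINC00313 have 69.3%, 64.7% and 65.3%. The stretch between the starts of LINC01137 and ZC3H12A has a GC content of 82.4%. The motif TTCNNNGAA, which reads the same on both strands, was found in 6 of the 59 member windows (10.2%) and in 2689 of 35116 windows of the RefSeq promoter table (7.66%). By direction it was in 1 of 8 windows of members that rose, LINC00857, where it starts 16 bases after the start site. It was in 0 of 6 windows of members that fell and in 5 of 45 of members that did not pass the test, namely LINC01355, LINC01232, LINC00324, LINC01270 and LINC01186. A match in these windows is a description of letters and not a binding site.

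The members were of low abundance and unequal. Their summed reads ran from 107 to 7911 with a median of 420; 22 had at least 1000 reads and 26 had under 200. On a per-length scale their mean FPKM (fragments scaled to transcript length and library depth) ran from 0.23 to 99.9 with a median of 3.59, against a median of 13.8 over the tested protein-coding genes. The 10 members with the most reads held 42.8% of all member reads. LINC00963, studied in prostate cancer, alone held 11.3%. Annotation in GENCODE 29 was found for 94 of the 95 by Ensembl ID, all but LINC00842, and 73 of them are typed as lincRNA, 12 as processed transcripts, 4 as antisense RNAs, 2 as bidirectional-promoter RNAs and 3 as transcribed pseudogenes. Just inside the limit of 100 reads stood LINC01232 with 107 reads, LINC00337 with 111 and LINC01273 with 113. Just outside stood LINC00886 with 93 reads, LINC01667 with 86 and LINC01271 with 85. The limit uses the sum over both groups, and 90 of the 95 had at least 50 reads in each group. Under 50 reads were found for 1 member in STAT3 shRNA and for 4 in Ctrl shRNA.

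As a share of the library, the members took 0.0884% of reads (95% Wilson interval 0.0873% to 0.0896%) and 0.0900% (0.0886% to 0.0914%) in the STAT3 shRNA libraries. In the Ctrl shRNA libraries they took 0.0794% (0.0782% to 0.0807%) and 0.0794% (0.0782% to 0.0807%). Intervals cover counting error only, since reads are not independent molecules. Each STAT3 shRNA library had a higher share than each Ctrl shRNA library, at 0.0892% ± 0.00110 against 0.0794% ± 0.0000111 (SD, n = 2 each). With 2 libraries a group the two-sided exact permutation test gave p = 0.333, the smallest it can give. A share of all reads also moves with abundant genes outside the set.

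In bulk libraries, fewer cells that make an RNA and less of it per cell cannot be told apart. Single LINC RNAs moved in both directions, and most did not pass the test. All 95 entered the test across 15199 genes. Of them 17 rose with STAT3 shRNA (17.9%) and 10 fell (10.5%), while 16.8% of all tested genes rose and 18.7% fell. Together 27 passed (28.4%), against 35.5% of all tested genes and 38.1% of protein-coding genes within the same range of reads. The median log2 fold change was 0.07 for the members, with quartiles of -0.23 and 0.44, and 0.02 for all tested genes. Members were measured less precisely, with a median SE of 0.24 against 0.13 for all genes. The CPM of the 2 groups did not overlap for 62 of the 95, where 70.8% of all tested genes had no overlap; all 27 that passed are among the 62. At least 2-fold changes that passed were found for 13 (13.7%), of which 9 rose and 4 fell. Among all tested genes 11.6% changed at least 2-fold, counted whether or not they passed. The Ctrl shRNA libraries differed more from each other, with a median coefficient of variation over members of 12.7%, against 8.49% in STAT3 shRNA. Without STAT3 shRNA library 1, 8 members rose and 5 fell, and without STAT3 shRNA library 2, 10 rose and 5 fell (16.1% and 16.2% of all tested genes passed). Without Ctrl shRNA library 1, 22 rose and 14 fell, and 45.5% of all genes passed; without Ctrl shRNA library 2, 15 rose and 7 fell, and 34.3% passed. At an adjusted p under 0.01, 10 members rose and 5 fell (19.1% of all genes passed), and against a fold of 1.5 as the null, 5 rose and 2 fell (6.57% of all genes).

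**Figure D1:**
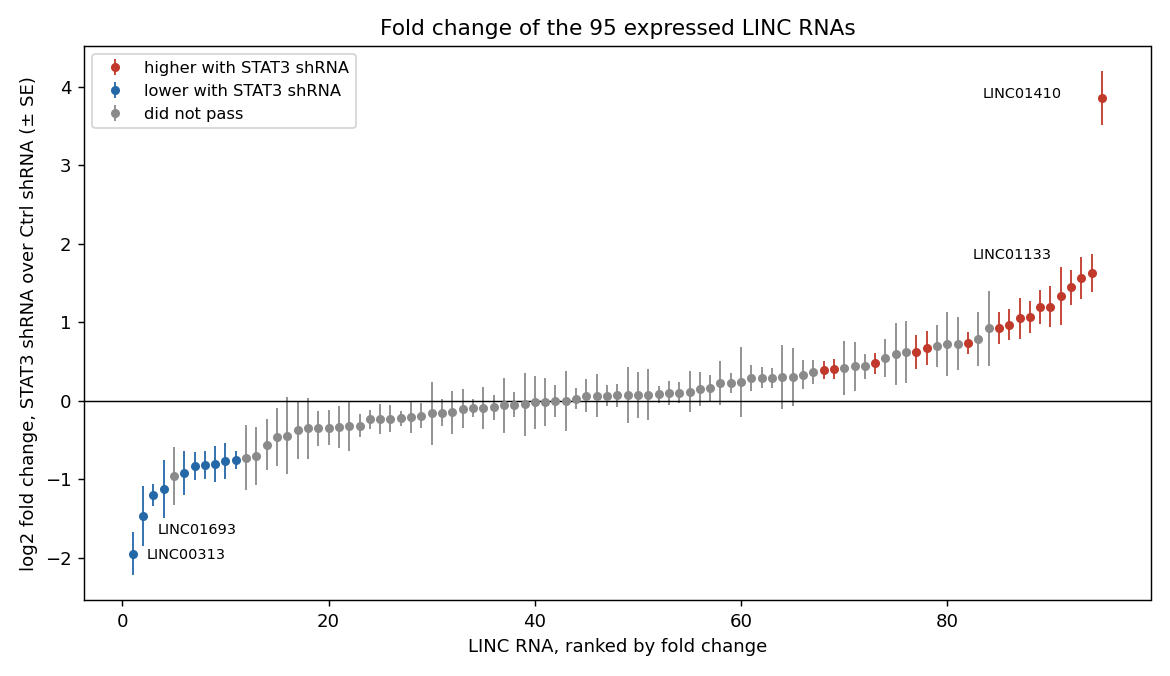
Log2 fold change of STAT3 shRNA over Ctrl shRNA for the 95 expressed LINC RNAs, ranked on the horizontal axis; points are edgeR estimates and bars are SEs from 2 libraries a group. Red points are the 17 that rose, blue points the 10 that fell and grey points the 68 that did not pass, and LINC01410 stands apart at 3.86.

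LINC01410 (ENSG00000238113.6; GRCh38 chromosome 9, 62801461 to 62813486, plus strand, 7 exon blocks) had the largest rise. It had 129 and 111 reads in the STAT3 shRNA libraries and 7 and 7 reads in the Ctrl shRNA libraries. These correspond to 4.84 and 6.03 CPM with STAT3 shRNA, against 0.371 and 0.366 CPM with Ctrl shRNA. Both STAT3 shRNA libraries lay far above both controls, a 14.5-fold rise (log2 fold change 3.86 ± 0.34, adjusted p 0.000103). LINC01410 is among the 4 members with under 50 reads in Ctrl shRNA. It met the limit of 100 reads through the STAT3 shRNA libraries, so its place in the set was not independent of the difference. A near-identical transcript, CR786580.1, shares its sequence, and with reads of both summed the log2 fold change was 4.10 ± 0.25 (adjusted p 1.71e-05). No tested protein-coding gene starts within 1 Mb of it.

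LINC01133 (ENSG00000224259.6; chromosome 1, 159961218 to 159984750, plus strand, 6 exon blocks) is known to bind the splicing factor SRSF6. It had 7.77 and 7.88 CPM with STAT3 shRNA and 3.02 and 2.04 CPM with Ctrl shRNA. The STAT3 shRNA libraries were nearly equal and the controls lay well below them, with a log2 fold change of 1.63 ± 0.24 (adjusted p 0.00123). LINC01291 (chromosome 2) had 5.51 and 6.68 CPM with STAT3 shRNA, against 2.44 and 1.67 CPM with Ctrl shRNA, and rose by 1.56 ± 0.27 on the log2 scale (adjusted p 0.00256). LINC00668 (ENSG00000265933.5; chromosome 18, 6919496 to 6929966, minus strand, 8 exon blocks) was on a short list of LINC genes with a reported link to STAT3. It had 7.17 and 8.37 CPM with STAT3 shRNA and 3.23 and 2.46 CPM with Ctrl shRNA. It was thus higher where STAT3 was low, by 1.44 ± 0.23 on the log2 scale (adjusted p 0.00169). LINC00520, the other gene of that list in the table, had 1 read in each STAT3 shRNA library and 0 in each Ctrl shRNA library and was not tested. Neither LINC01291 nor LINC00668 passed with limma on FPKM.

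The further rises were smaller. LINC00888 (chromosome 3, typed as a transcribed unprocessed pseudogene) had 7.65 and 9.62 CPM with STAT3 shRNA and 4.19 and 3.35 CPM with Ctrl shRNA (log2 fold change 1.19 ± 0.22, adjusted p 0.00342). LINC00707, reported to bind the RNA-stabilizing protein HuR, had 4.69 and 5.11 CPM with STAT3 shRNA, against 2.44 and 1.83 CPM with Ctrl shRNA, and a log2 fold change of 1.19 ± 0.26 (adjusted p 0.00793). LINC00958, described in bladder cancer, had 9.64 and 10.05 CPM with STAT3 shRNA and 5.78 and 4.29 CPM with Ctrl shRNA; its log2 fold change was 0.97 ± 0.20 (adjusted p 0.00581). None of these overlapped between groups. LINC02236 rose by 1.33 ± 0.37 at only 2.36 and 2.01 CPM with STAT3 shRNA and 0.901 and 0.836 CPM with Ctrl shRNA (adjusted p 0.0221). LINC00987 had 4.01 and 4.40 CPM with STAT3 shRNA, against 1.96 and 2.09 CPM with Ctrl shRNA (log2 fold change 1.05 ± 0.26, adjusted p 0.0136); AC010175.1 overlaps it on the same strand with 73.2% as many reads, so its value is uncertain to that extent. LINC02604, LINC02210, LINC00504, LINC02035, LINC00857, LINC01989 and LINC00472 rose by 0.39 to 0.93 on the log2 scale. Of 13 alternative analyses, LINC02604 passed in 11, LINC02210 in 12, LINC00504 in 6 and LINC02035 in 5. LINC00504 and LINC02035 did not pass with DESeq2 or with limma on FPKM. LINC00472, described as a tumour suppressor in breast cancer, had 33.2 and 39.7 CPM with STAT3 shRNA and 28.7 and 26.7 CPM with Ctrl shRNA (adjusted p 0.0299). LINC01989, with the most reads among the members that passed, had 46.4 and 37.3 CPM with STAT3 shRNA, against 33.9 and 29.6 CPM with Ctrl shRNA (adjusted p 0.0388). The call was lost for LINC00707 without STAT3 shRNA library 2 (adjusted p 0.0603), for LINC00472 without the same library (0.347), for LINC01989 without STAT3 shRNA library 1 (0.416), and for LINC02236 and LINC00987 without either STAT3 shRNA library (0.206 and 0.0951, 0.0734 and 0.114). LINC00857, the riser with the motif, had 14.4 and 14.9 CPM with STAT3 shRNA and 10.5 and 10.6 CPM with Ctrl shRNA (log2 fold change 0.47 ± 0.14, adjusted p 0.0278). It did not pass without STAT3 shRNA library 1 (0.133), without STAT3 shRNA library 2 (0.185), with DESeq2 (0.0984) or with limma on FPKM (0.168 and 0.166). LINC02236, LINC00472 and LINC01989 also did not pass with DESeq2 (adjusted p 0.0826, 0.059 and 0.0547).

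LINC00313 (ENSG00000185186.9; chromosome 21, 43462094 to 43479534, minus strand, 11 exon blocks) had the largest fall. It had 4.20 and 2.34 CPM in the STAT3 shRNA libraries and 11.1 and 14.7 CPM in the Ctrl shRNA libraries. Both STAT3 shRNA libraries lay under both controls, with a 3.86-fold fall (log2 fold change -1.95 ± 0.27, adjusted p 0.000914). Its near-identical copy LINC01669 had 3 and 1 reads with STAT3 shRNA and 13 and 35 with Ctrl shRNA, and summing both gave -2.05 ± 0.28. LINC02001 (ENSG00000267321.2; chromosome 17, 35568109 to 35574843, plus strand, 3 exon blocks), named SNHG30 in the current symbol table, is a small nucleolar RNA host gene. It had 7.99 and 8.37 CPM with STAT3 shRNA, against 18.4 and 19.2 CPM with Ctrl shRNA. The replicates were close to each other, and the fall was 2.30-fold (log2 fold change -1.20 ± 0.14, adjusted p 0.000369).

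LINC01123 (ENSG00000204588.5; chromosome 2, 109987063 to 109996140, plus strand), described as a MYC target in lung adenocarcinoma, had 17.1 and 16.7 CPM with STAT3 shRNA and 27.0 and 30.1 CPM with Ctrl shRNA. It fell by 0.76 ± 0.11 on the log2 scale (adjusted p 0.00126). LINC01106 is a near-identical copy. It had 28.4 and 28.9 CPM with STAT3 shRNA, against 33.4 and 33.5 CPM with Ctrl shRNA, and did not pass alone (log2 fold change -0.22 ± 0.10, adjusted p 0.105). Reads of the copies together gave -0.44 ± 0.09 (adjusted p 0.00528). How reads were assigned between the copies is not known, so the value of each gene alone is uncertain. LINC01693 had 1.501 and 1.41 CPM with STAT3 shRNA and 2.65 and 5.44 CPM with Ctrl shRNA (log2 fold change -1.47 ± 0.38, adjusted p 0.0169). Its controls differed from each other by more than the nearer one differed from STAT3 shRNA. LINC02593, LINC00896, LINC01315, LINC00689, LINC01806 and LINC01137 had log2 fold changes of -1.12 to -0.76, with adjusted p of 0.00726 to 0.043. Of 13 alternative analyses LINC00896 passed in 6, and it did not pass with DESeq2 or with limma on FPKM. LINC01806 had 4.61 and 7.23 CPM with STAT3 shRNA and 10.1 and 10.4 CPM with Ctrl shRNA. Without STAT3 shRNA library 1 the adjusted p was 0.202 for LINC01806, 0.0877 for LINC00689 and 0.188 for LINC00896, and without STAT3 shRNA library 2 it was 0.0607 for LINC01315 and 0.0569 for LINC01693. Without Ctrl shRNA library 2 it was 0.122 for LINC01693, whose log2 fold change was then -0.86.

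**Figure D2:**
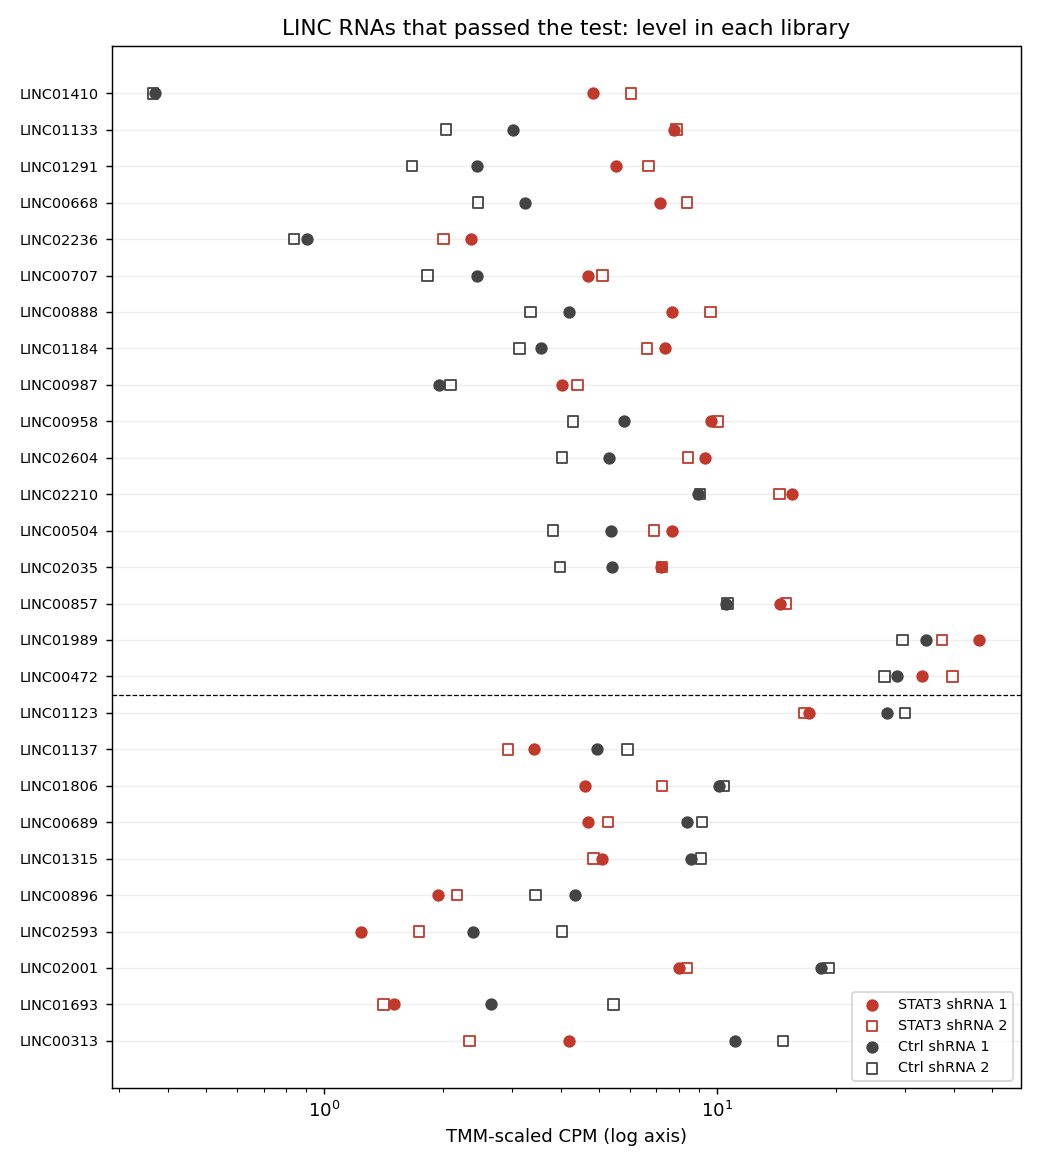
TMM-scaled CPM on a log axis for the 27 LINC RNAs that passed the test, 1 row each; red symbols are the STAT3 shRNA libraries and dark symbols the Ctrl shRNA libraries, filled for library 1 and open for library 2. Above the broken line are the 17 that rose and under it the 10 that fell, and in no row do the groups overlap.

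Of the 10 members with the highest mean CPM, LINC01989 and LINC00472 rose and LINC01123 fell, as given above, and the others did not pass. LINC00963 had 90.0 and 95.6 CPM with STAT3 shRNA and 87.1 and 110.4 CPM with Ctrl shRNA, so its groups overlapped (log2 fold change -0.09 ± 0.12, adjusted p 0.582). Without Ctrl shRNA library 1 its log2 fold change was -0.28 and passed (adjusted p 0.00691). LINC01578, the human CHASERR transcript next to CHD2, was highest per length, with 100.3 and 108.3 FPKM with STAT3 shRNA, against 106.0 and 84.9 FPKM with Ctrl shRNA; on counts its log2 fold change was 0.08 ± 0.11 (adjusted p 0.583). LINC00322 (0.30 ± 0.13, adjusted p 0.109), LINC00205 (0.07 ± 0.15, adjusted p 0.731), LINC01278 (0.22, adjusted p 0.211) and LINC01895 (-0.24, adjusted p 0.144) did not pass either. LINC00322 passed without Ctrl shRNA library 2 (0.44, adjusted p 0.0133), and LINC01895 without Ctrl shRNA library 1 (-0.33, adjusted p 0.0492). A p above the threshold does not show that these were equal.

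Of 21 LINC genes that are often studied in cancer, 15 were in the table, 12 were tested and 9 are members. LINC00472 rose, and the other 11 did not pass, while 16.8% of all tested genes rose and 18.7% fell. LINC00346, also known as PRECSIT, a p53-regulated transcript that raises STAT3 signalling in skin carcinoma cells, had 13.9 and 13.0 CPM with STAT3 shRNA and 9.49 and 11.4 CPM with Ctrl shRNA. Its groups did not overlap, but it did not pass (log2 fold change 0.36 ± 0.16, adjusted p 0.102); without Ctrl shRNA library 2 it passed (adjusted p 0.0313). LINC00665, which encodes the micropeptide CIP2A-BP, had 17.7 and 19.9 CPM with STAT3 shRNA, against 15.7 and 14.9 CPM with Ctrl shRNA (0.30 ± 0.13, adjusted p 0.102). LINC00467, translated into a mitochondrial micropeptide in colorectal cancer, had 6.27 and 7.07 CPM with STAT3 shRNA and 6.52 and 8.78 CPM with Ctrl shRNA (-0.20 ± 0.20, adjusted p 0.472). LINC00324, LINC00339 and LINC00174 had log2 fold changes of 0.73, 0.00 and -0.19 and did not pass (adjusted p 0.129, 0.998 and 0.386).

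Some members lie beside a protein-coding gene that changed in the same direction; counts over the whole set follow after the single pairs. LINC01184, listed as SLC12A2-DT in the current symbol table, starts 594 bases from SLC12A2, the sodium-potassium-chloride cotransporter NKCC1, and is transcribed away from it. LINC01184 had 7.35 and 6.63 CPM with STAT3 shRNA and 3.55 and 3.14 CPM with Ctrl shRNA (log2 fold change 1.07 ± 0.21, adjusted p 0.00472). SLC12A2 had 19.7 and 16.8 CPM with STAT3 shRNA, against 11.5 and 9.57 CPM with Ctrl shRNA, and rose by 0.80 ± 0.15 (adjusted p 0.00434). LINC01137, listed as ZC3H12A-DT, starts 141 bases from ZC3H12A, the RNase regnase-1 that degrades cytokine messenger RNAs. LINC01137 had 3.41 and 2.93 CPM with STAT3 shRNA and 4.93 and 5.91 CPM with Ctrl shRNA (log2 fold change -0.76 ± 0.23, adjusted p 0.0313). ZC3H12A had 9.57 and 9.19 CPM with STAT3 shRNA, against 21.3 and 29.5 CPM with Ctrl shRNA, and fell by 1.44 ± 0.17 on the log2 scale (adjusted p 0.000415). Their start region is the one printed above. Without STAT3 shRNA library 1, LINC01184 had an adjusted p of 0.0542 and LINC01137 one of 0.108. LINC01137 had 0.207 without STAT3 shRNA library 2, 0.08 without Ctrl shRNA library 2 and 0.087 with DESeq2.

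LINC02593 and SAMD11, with starts 2912 bases apart, also fell together, at -1.12 ± 0.37 (adjusted p 0.043) and -3.12 ± 0.28 (adjusted p 0.000103); SAMD11 had 1.58 and 2.12 CPM with STAT3 shRNA and 12.2 and 19.6 CPM with Ctrl shRNA. LINC02593 did not pass without STAT3 shRNA library 1 (adjusted p 0.239), without STAT3 shRNA library 2 (0.0766), without Ctrl shRNA library 2 (0.245) or with DESeq2 (0.0773). LINC00668 starts 187848 bases from the start of LAMA1, the gene of the laminin alpha 1 chain of basement membranes. Both are on the same strand and their spans do not overlap. The gap between the spans is smaller than the distance between the starts and is not given here. LAMA1 had 323.6 and 296.2 CPM with STAT3 shRNA, against 26.4 and 30.2 CPM with Ctrl shRNA, and rose by 3.45 ± 0.10 (adjusted p 3.28e-07). LINC00689 shares 2021 bases with VIPR2, a receptor of vasoactive intestinal peptide, on the opposite strand, where the gene spans overlap in part. LINC00689 had 4.69 and 5.27 CPM with STAT3 shRNA and 8.38 and 9.15 CPM with Ctrl shRNA, and VIPR2 fell by 1.65 ± 0.11 on the log2 scale (adjusted p 2.16e-05) with 389.5% as many reads as the LINC RNA. Whether the 2 fell separately cannot be told apart here, since the use of strand is not stated.

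Other neighbours moved against the LINC RNA (changes given on the log2 scale). TAGLN2, the actin-binding transgelin-2, fell by 0.66 ± 0.09 (adjusted p 0.000841), while LINC01133, whose start lies 35486 bases from that of TAGLN2, rose. POLE4, a DNA polymerase epsilon subunit beside LINC01291, fell by 0.52 (adjusted p 0.0049). AP2B1, an adaptor of endocytosis, and NEK2, a mitotic kinase, rose by 0.42 and 0.30 (adjusted p 0.00539 and 0.0202) beside LINC02001 and LINC01693, which fell. PSMD14, a proteasome subunit beside LINC01806, fell like it, by 0.61 (adjusted p 0.000687). Close starts did not always go with like changes. FAM207A, 97 bases from LINC01547, fell by 1.15 (adjusted p 0.000248) and CAPN15, 310 bases from LINC00235, by 0.86 (adjusted p 0.000173), while LINC01547 and LINC00235 had 0.07 and -0.05 and did not pass.

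Counted over the set, 89 members had their nearest tested protein-coding gene within 1 Mb. Of the 16 members among them that rose, the neighbour rose in 3 and fell in 3, and of the 10 that fell, the neighbour fell in 4 and rose in 2. These counts are small, and 16.8% of all tested genes rose and 18.7% fell; for the members that rose, neighbours of like and opposite direction were equal in number. As a description across pairs, which share libraries and in part neighbours, log2 fold changes correlated with Pearson's r of 0.36 and Spearman's rho of 0.34 (n = 89 pairs). Without the pairs of LAMA1 and of SAMD11, the neighbour of 3 members, these were 0.23 and 0.28 (n = 85). For 12 divergent pairs with starts within 5 kb they were 0.58 and 0.40. These 12 include the pair of LINC02593 and SAMD11, and r and rho were not computed without it. Against the median of at least 5 genes within 1 Mb, r and rho were 0.09 and 0.03 (n = 75).

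**Figure D3:**
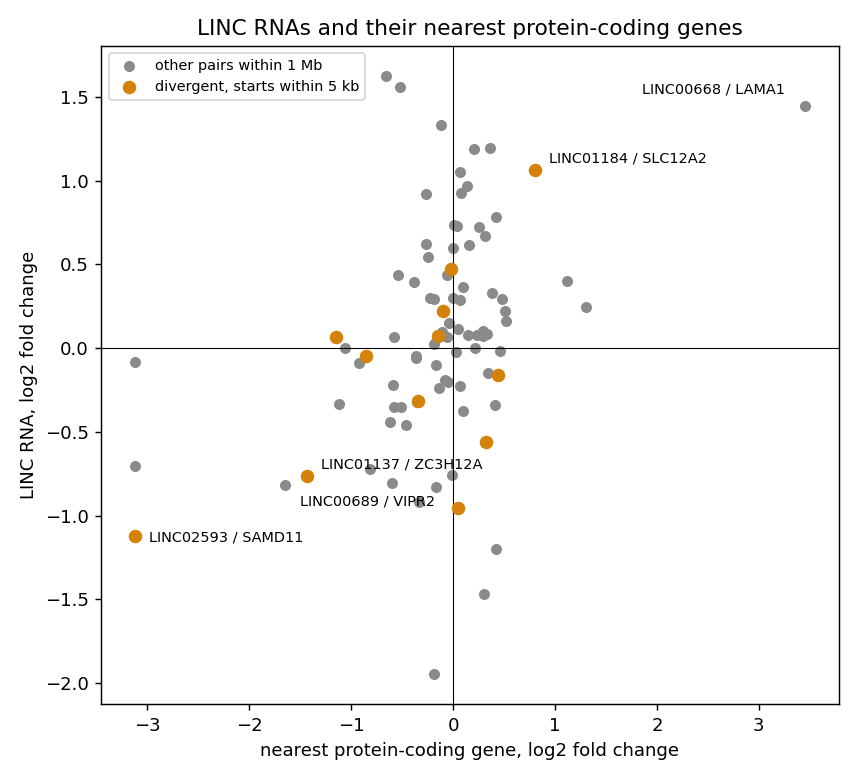
Log2 fold change (STAT3 shRNA over Ctrl shRNA) of each LINC RNA on the vertical axis against that of its nearest tested protein-coding gene on the horizontal axis, 1 point for each of the 89 pairs within 1 Mb; orange points are the 12 divergent pairs with starts within 5 kb. LINC01184 with SLC12A2 lies at the upper right and LINC01137 with ZC3H12A at the lower left, while many points lie near 0 on the horizontal axis.

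The members that rose and fell differed in base composition. The longest GENCODE transcript had a median GC content of 44.9% in the 17 that rose, 56.0% in the 10 that fell and 50.1% in those that did not pass. Across 94 members, log2 fold change and GC content had a Spearman's rho of -0.33 (Pearson's r -0.30), and across 14545 tested genes it was -0.34 (r -0.18). The log2 ratio between the 2 Ctrl shRNA libraries also ran with GC content over the members (rho -0.34), while that between the 2 STAT3 shRNA libraries did not to that degree (rho 0.05). With each library's GC trend removed as an offset, 17 members rose and 8 fell, 21 of these 25 being among the 27 above, and 33.8% of all genes passed. Calls of LINC00504, LINC02035, LINC01989, LINC01137, LINC00896 and LINC02593 were lost with it (adjusted p 0.0975, 0.0862, 0.105, 0.0606, 0.103 and 0.0997). Median transcript length was 2877 bases in those that rose, 1816 bases in those that fell and 2600 bases in those that did not pass.

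**Figure D4:**
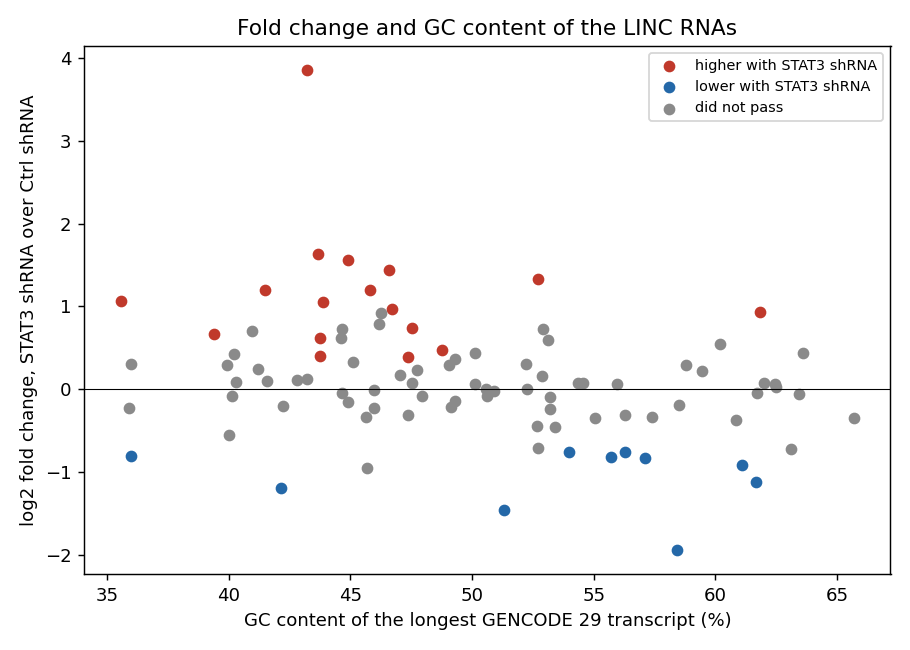
Log2 fold change (STAT3 shRNA over Ctrl shRNA) of each LINC RNA against the GC content in percent of its longest GENCODE 29 transcript, for the 94 members with an annotation. Members that rose (red) have a median of 44.9% GC and those that fell (blue) one of 56.0%, with overlap in range.

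Long noncoding RNAs with names of their own were read from a list of 42. Of these 37 were in the table and 34 were tested. There 8 rose and 11 fell, while 16.8% of all tested genes rose and 18.7% fell. The median log2 fold change was -0.18, against 0.02 over all tested genes. Host genes of small nucleolar RNAs and microRNAs are on this list too. Of those, SNHG1, SNHG3, SNHG5, SNHG6, SNHG7, SNHG8 and SNHG15 fell and are counted again among the host genes below. H19, an imprinted RNA made in fetal liver, had 2865 and 2700.1 CPM with STAT3 shRNA and 7890 and 11817 CPM with Ctrl shRNA (log2 fold change -1.82 ± 0.16, adjusted p 9.8e-05). NEAT1, the scaffold of nuclear paraspeckles, had 577.6 and 584.5 CPM with STAT3 shRNA, against 1206 and 1085 CPM with Ctrl shRNA (-0.98 ± 0.08, adjusted p 8.7e-05). DANCR fell by 0.86 ± 0.09 on the log2 scale (adjusted p 0.000211). NORAD, which binds PUMILIO proteins, rose by 0.27 ± 0.08 on the same scale (adjusted p 0.028).

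The nuclear RNA exosome and its cofactors had 24 of 27 listed genes in the table, all tested. Of these 2 rose and 6 fell, with a median log2 fold change of 0.03. These 8 of 24 are close to the 35.5% of all tested genes that passed, so the count says nothing particular to the list. EXOSC4, a core subunit, had 29.6 and 33.0 CPM with STAT3 shRNA and 55.4 and 66.8 CPM with Ctrl shRNA (-0.97 ± 0.12, adjusted p 0.000485). On the log2 scale, EXOSC7 fell by 0.79 ± 0.11 (adjusted p 0.00105) and PABPN1, a poly(A)-binding cofactor of nuclear decay, by 0.54 ± 0.09 (adjusted p 0.00244). DIS3, the catalytic nuclease, and TENT4B, a poly(A) polymerase that tags its substrates, rose by 0.29 and 0.35 (adjusted p 0.0298 and 0.0352).

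By naming class, antisense RNA genes passed in 52 of 301 tested rows (26 rose and 26 fell, 17.3%), LINC rows under 100 reads in 8 of 51 (15.7%), and host genes of small nucleolar RNAs and microRNAs in 18 of 40, of which 2 rose and 16 fell (45.0%). Over all tested genes 35.5% passed, and over the expressed LINC RNAs 28.4%. Among these classes depth differed as well, with median summed reads of 164, 56 and 962.5, against 420 in the expressed LINC RNAs.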

How the data were processed

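Per the file headers, the tables the authors deposited for 4 libraries hold a raw count of reads for each gene and an FPKM for each gene. The aligner, the counting tool, the annotation, the build and whether strand was used: not given in the sources used here. Columns headed Ctrl matched the Ctrl shRNA titles; those headed "Si" match no title word for word and were read as STAT3 shRNA.

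The count test was edgeR's quasi-likelihood F test (edgeR 4.0.16, R 4.3.3) on 15199 genes kept by filterByExpr, two-sided, with TMM factors of 1.03 and 1.04 for STAT3 shRNA and 0.979 and 0.951 for Ctrl shRNA. Group was the only model term. Benjamini-Hochberg adjustment covered every tested gene, at a threshold of 0.05. CPM are TMM-scaled; errors are SDs of CPM over 2 libraries and SEs of log2 fold changes. Alternatives were RLE and upper-quartile scaling, other filters, the replicate number as a block, DESeq2 1.42.0, limma 3.58.1 on log2(FPKM + 1) and log2(FPKM + 0.1), leaving out each library, a GC offset, a test against a fold of 1.5 and a threshold of 0.01. Reads summed with near-identical copies (blastn 2.17.0, 95% identity over 50% of the transcript; 11 members have one) were added after seeing the data. Positions, lengths and neighbours are from GENCODE 29 (GRCh38), matched by Ensembl ID, 88 with the same version. Of the members, 23 overlap a gene with at least 20% as many reads, 3 of them among those that passed.

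The test was also run on simulated counts for 15199 genes, with 50 genes set to each of 4 fold sizes and the other 14999 unchanged. It found 23 at a fold of 1.5, 40 at 2, 48 at 4 and 47 at 8, and it called 7 unchanged genes. In the data 35.5% of tested genes passed, a far larger part than was changed in the simulation. Median summed reads were 420 for the members and 1841 for all tested genes, with median SEs of 0.24 and 0.13. The simulated rates therefore cannot be carried over to the members or to these data.

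Members and gene lists were chosen with earlier results of these data known. Named genes were STAT3, the 10 members with the highest mean CPM, the 10 largest rises and falls among members that passed, members next to the read limit, members of the short LINC lists, the smallest p-values of the other lists and the neighbours of the largest rises and falls. Genes named outside this rule, among them LINC02210 to LINC00472 of the smaller rises, LINC01547, LINC00235, NORAD and the start-site motif matches, were chosen after their values were seen. Values of some genes are not reported here.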

Additional observations from a re-analysis of the deposited data

How the results depend on the processing

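Of the 27 LINC RNAs that passed, all kept their direction under 13 alternatives. These 13 do not include the test against a fold of 1.5 or the threshold of 0.01. In every one of the 13, 6 passed: LINC01410, LINC01133 and LINC00888, which rose, and LINC01123, LINC02001 and LINC00313, which fell. The other 21 lost the call in at least 1 of the 13. Against a fold of 1.5 only 2 members fell, so LINC01123, LINC02001 and LINC00313 did not all pass there. Against 17 that rose and 10 that fell, DESeq2 gave 11 and 7, limma on log2(FPKM + 1) gave 8 and 5, limma on log2(FPKM + 0.1) gave 6 and 5, the test against a fold of 1.5 gave 5 and 2, and a threshold of 0.01 gave 10 and 5. Leaving out 1 library gave 8 to 22 that rose and 5 to 14 that fell. Over all genes, 29.2% passed with DESeq2, 16.7% and 16.4% with limma, 6.57% against a fold of 1.5, 19.1% at 0.01, and 16.1% to 45.5% with 1 library left out. For named long noncoding RNAs, 8 rose and 11 fell; DESeq2 gave 4 that rose, limma gave 3 and 5 with either pseudocount, and leaving out a library gave 1 to 10 that rose and 4 to 13 that fell. For the exosome list, 2 rose and 6 fell; DESeq2 gave 0 that rose, limma gave 1 and 2 with either pseudocount, and leaving out a library gave 0 to 6 that rose and 3 to 6 that fell. For LINC genes studied in cancer, 1 rose and 0 fell; DESeq2 and both limma fits gave 0 that rose, leaving out a library gave 0 to 2 and 0 to 1, and RLE scaling, no filter, a filter of 1 CPM and the replicate block each gave 1 that fell. Without a library the lone sample of its group is assumed to vary like the other group. The rank correlation with the nearest gene was 0.24 within 100 kb. The cause of these differences was not tested.

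The replicate number was also fitted as a block. Same-numbered libraries deviated from their group means with a correlation of -0.02. With 2 libraries a group this value cannot tell whether same-numbered samples were prepared together, which is not stated. With the block 18 members rose and 10 fell, 27 of the 28 shared with the calls above. Members under 200 reads, 26 of the 95, are those where depth limits the test most.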

Other observations

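Host genes of small nucleolar RNAs and microRNAs were set apart after their values were seen. Of 40 tested, 16 fell with STAT3 shRNA (40.0%) and 2 rose (5.0%), while 18.7% of all tested genes fell and 16.8% rose. SNHG29 averaged 296.1 ± 8.49 CPM with STAT3 shRNA and 462.9 ± 3.57 CPM with Ctrl shRNA (SD, n = 2 each; log2 fold change -0.65 ± 0.08, edgeR adjusted p 0.000467). SNHG19 averaged 7.30 ± 0.49 CPM with STAT3 shRNA and 23.8 ± 8.36 CPM with Ctrl shRNA (-1.70 ± 0.23, adjusted p 0.000751). MIRLET7BHG, which holds let-7b, averaged 23.1 ± 3.04 CPM with STAT3 shRNA, against 52.1 ± 4.58 CPM with Ctrl shRNA (-1.18 ± 0.12, adjusted p 0.000224). The 2 that rose were MIR100HG (0.78 ± 0.22, adjusted p 0.0254) and MIR99AHG (0.51 ± 0.17, adjusted p 0.0473), both hosts of microRNA clusters with a let-7 family member. LINC02001, now SNHG30, fell as well; the other 22 tested host genes did not pass. Depth is higher in this class than in the LINC RNAs, and the difference between the classes was not tested.

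Of the 51 tested LINC rows under 100 reads, 4 rose and 4 fell (7.84% each), while 16.8% of all tested genes rose and 18.7% fell. LINC01667 had 6 and 2 reads with STAT3 shRNA and 36 and 42 reads with Ctrl shRNA. LINC01508 had 17 and 14 reads with STAT3 shRNA and 1 and 0 with Ctrl shRNA, and LINC01559 had 18 and 11 with STAT3 shRNA, against 1 and 0 with Ctrl shRNA. LINC00323 had 19 and 19 reads with STAT3 shRNA and 4 and 2 with Ctrl shRNA. Each of these named rows met the low-count filter of the test only through the group where it was high. Large differences were therefore favoured in advance, and the low group rests on few reads.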
